A study of Mus musculus with 6 samples.

Results

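The miR-30 family was read in newborn mouse lung by 7 RT-PCR assays, found by name among 768 wells (750 of them miRNA assays) as miR-30a, 30b, 30c, 30d or 30e, with the species prefix and the arm ending ignored and names ending in # left out. The first card of each sample held 5 of them, mmu-miR-30a, mmu-miR-30b, mmu-miR-30c, mmu-miR-30d and mmu-miR-30e, for the arm that gives the family its name. They are called miR-30a to miR-30e below. The second card held the other 2, hsa-miR-30a-3p and hsa-miR-30e-3p, which read the opposite arm of the same hairpins. Newborn mice, less than 12 h old at the start, were kept for 7 days in hyperoxia (95% oxygen) or in room air, and the study examined how miRNA levels differ between them. The right lung was taken at day 7 after the pulmonary artery had been flushed with saline, from 3 samples per group, and the dams changed places between the atmospheres every 24 h. All groups shared this handling, the reverse transcription with 2 primer pools and 12 cycles of pre-amplification. The sources used here give no strain, sex or litter, and nothing says that the samples came from separate animals, so the p-values speak only to sample-to-sample spread, some of which may be technical.

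MicroRNAs of the miR-30 family are cut from hairpin precursors, and the arm loaded into Argonaute pairs through its seed, bases 2 to 8, with messenger RNAs and lowers their output. The family is abundant in lung and in many differentiated tissues. Its described targets include Snai1, a driver of the loss of epithelial character, and Dll4, a Notch ligand of sprouting vessels. The hairpins lie in clusters: miR-30a with the second copy of miR-30c, the first copy of miR-30c with miR-30e, and miR-30b with miR-30d.

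Members are linked by their seed, which the sequences below show in capitals. They are mouse mature sequences from RefSeq (build GRCm38.p6), written 5′ to 3′, for the name-giving arms of miR-30a, miR-30c and miR-30e, for miR-384-5p and for both opposite arms on the cards. miR-384-5p has the same seed and is counted outside the family only by the name rule used here. miR-30b and miR-30d are given by name only, and the seed counts that follow do not cover them.
miR-30a: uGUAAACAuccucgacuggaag
miR-30c: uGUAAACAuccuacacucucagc
miR-30e: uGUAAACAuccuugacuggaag
miR-384-5p: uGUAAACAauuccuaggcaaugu
miR-30a-3p: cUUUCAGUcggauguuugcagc
miR-30e-3p: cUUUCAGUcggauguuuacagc

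The seed GUAAACA was held by 4 of the 1679 mature miRNA names searched (0.238%), namely the first 4 sequences above. The opposite arms carry another seed, UUUCAGU, held by these 2 of 1679 (0.119%), so they share hairpins with the family but not its seed. miR-30a and miR-30e were identical at 21 of 22 positions, with the single difference C13U (counted from the 5′ end, miR-30a first). The 3p arms of both were also identical at 21 of 22 positions, with G18A (miR-30a-3p first). miR-30a and miR-30c were identical at 17 of 22 positions and differed by C13A, G14C, G18C, G19U and A20C, all outside the seed. Whether assays for such similar sequences pick up each other's target was not tested.

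Mir30a lies on chromosome 1 at chr1:23272269-23272339, plus strand, with Mir30c-2 19.4 kb downstream at chr1:23291701-23291784. Mir30c-1 (chr4:120769534-120769622) and Mir30e (chr4:120772606-120772697) lie 3.0 kb apart on the minus strand of chromosome 4, within the gene Nfyc, which encodes a subunit of the transcription factor NF-Y. The 2 copies of miR-30c give the same mature sequence, so its assay reads their sum. Mir384 lies on chromosome X at chrX:105344282-105344369, minus strand.

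The values are threshold cycles (Ct). The Ct is the PCR cycle in which the fluorescence of a well passes a set threshold. More RNA gives a lower Ct, and with full doubling 1 cycle equals a fold of 2. A Ct under 35 was counted as detection, which 307 to 319 miRNA assays per sample reached on the first card and 268 to 293 on the second. The second card of room air replicate 1 and of hyperoxia replicate 2 held the same numbers in 308 of the 309 wells that amplified in both, against 0 of 312 on the first card. These values cannot belong to both samples and were left out of each, so first-card assays rest on 3 samples per group and second-card assays on 2. Lung markers were present, with miR-126-3p, the endothelial miRNA, at Ct 11.3 to 13.6 and the 6 epithelial assays of the first card at 16.2 to 21.8. The liver miRNA miR-122 ranged from 24.95 to 30.4, and the neuronal miR-124 at 28.5 to 40, the value of a well without amplification, with detection in 4 of 6 samples.

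miR-30c and miR-30b were among the most abundant readings of the lung. In room air miR-30c had a Ct of 13.5 ± 0.60 (SD, n = 3) and miR-30b of 14.04 ± 0.55 (SD, n = 3), the 3rd and 5th lowest mean Ct of the 282 first-card miRNA assays detected in all 6 samples. miR-30a followed at 15.6 ± 0.19 (SD, n = 3), in 13th place. miR-30e was at 16.9 ± 0.45 (SD, n = 3) and miR-30d at 17.9 ± 0.16 (SD, n = 3), in 29th and 44th place. In hyperoxia the places were 4, 6, 10, 37 and 44 for miR-30c, miR-30b, miR-30a, miR-30e and miR-30d. The order of the 5 assays was the same in 6 of 6 samples. Across samples the neighbours miR-30c and miR-30b lay about as far apart as their SD, and within each sample miR-30c crossed 0.19 to 0.88 cycles earlier. Assays differ in efficiency, so an order of Ct describes the readings and is not a measured ratio of molecules.

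Taken at full efficiency, the 5 first-card assays made up 12.7% ± 0.85 (SD, n = 3) of the summed signal of those 282 assays in room air, beside 12.4% ± 2.31 (SD, n = 3) in hyperoxia. Single samples gave 12.9%, 11.7% and 13.4% for room air against 10.4%, 11.8% and 14.9% for hyperoxia, so the groups overlapped and the hyperoxia samples were both the lowest and the highest. The summed signal includes the miR-499 well, whose lowest Ct of 11.8, in a room air sample, was below that of any miR-30 assay. Such a reading lowers the family's share in its sample, and shares without that well were not computed. Within the family miR-30c held 49.2% of the signal in room air and 45.5% in hyperoxia, and miR-30b 32.9% and 33.7%.

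Every first-card member crossed the threshold later in hyperoxia before any normalization. miR-30c read 12.85, 13.46 and 14.05 in room air replicates 1, 2 and 3, against 14.98, 14.32 and 14.37 in hyperoxia replicates 1, 2 and 3. miR-30b read 13.40, 14.34 and 14.38 in room air against 15.17, 14.70 and 15.10 in hyperoxia. miR-30e read 16.43, 17.09 and 17.29 against 18.44, 17.63 and 17.98. In these 3 assays room air replicate 1 had the lowest Ct and hyperoxia replicate 1 the highest, and the groups did not overlap. miR-30a read 15.42, 15.57 and 15.79 in room air against 16.58, 15.98 and 16.29 in hyperoxia. miR-30d read 17.79, 17.87 and 18.10 against 18.80, 18.48 and 18.36. In these assays too room air replicate 1 had the lowest Ct and hyperoxia replicate 1 the highest, as did the mean Ct of the card. Their groups did not overlap either, and the gaps between the nearest samples of the 5 assays were 0.19 to 0.34 cycles.

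The mean delay in hyperoxia was 1.10 cycles for miR-30c, 1.08 for miR-30e, 0.95 for miR-30b, 0.69 for miR-30a and 0.63 for miR-30d. Each had an exact two-sided permutation p of 0.1, the smallest that 3 samples against 3 allow. Such a delay was common on the card. Of the 282 assays, 131 (46.5%) had a later Ct in every hyperoxia sample than in every room air sample and 3 (1.06%) an earlier one. The mean Ct of the 282 assays was itself 0.76 cycles later in hyperoxia (23.1 ± 0.45, SD, n = 3) than in room air (22.4 ± 0.30, SD, n = 3), with an exact permutation p of 0.1. The delay of miR-30c, miR-30e and miR-30b was larger than this card mean and that of miR-30a and miR-30d smaller.

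**Figure D1:**
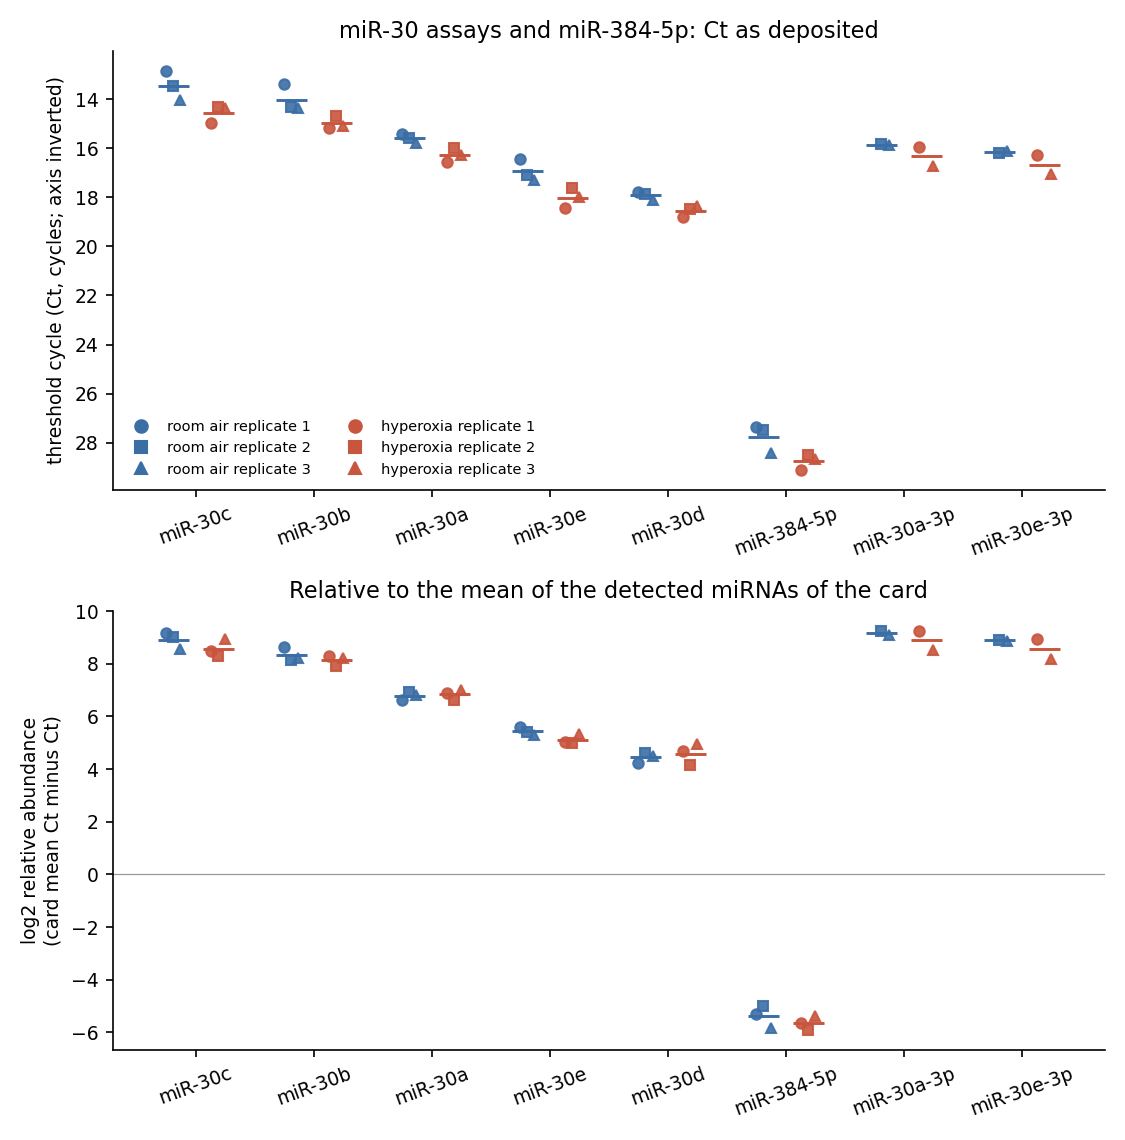
Upper panel: threshold cycle (cycles, axis inverted so that more RNA is higher) of the 5 first-card miR-30 assays, miR-384-5p and both 3p-arm assays in each sample, with a short line at each group mean. Lower panel: the same values as log2 relative abundance, the card's mean Ct minus the assay's Ct. In the upper panel every hyperoxia point of the 5 assays lies below the room air points, with gaps of 0.19 to 0.34 cycles, while in the lower panel the groups overlap for every assay.

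Once each card was set to its own mean, no member of the family stood apart between the groups. The relative abundance used here is the mean Ct of the card's detected miRNAs minus the assay's Ct, on the log2 scale. miR-30e was at 5.60, 5.40 and 5.31 in room air and at 5.03, 4.98 and 5.33 in hyperoxia; hyperoxia replicate 3 lay between room air replicates 2 and 3. miR-30c was at 9.18, 9.03 and 8.54 against 8.49, 8.30 and 8.94, and miR-30b at 8.63, 8.15 and 8.22 against 8.30, 7.91 and 8.21. Both had overlapping groups, with room air replicate 1 the highest sample and hyperoxia replicate 2 the lowest. miR-30a was at 6.61, 6.91 and 6.81 against 6.88, 6.63 and 7.02, and miR-30d at 4.24, 4.62 and 4.50 against 4.67, 4.14 and 4.95. In miR-30a and miR-30d hyperoxia replicate 3 was the highest sample. On this scale 0 of the 5 had groups without overlap, where 46 of the 282 assays (16.3%) were lower in every hyperoxia sample and 16 (5.67%) higher.

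Fold changes of hyperoxia over room air were fitted with limma over all 551 assays tested. Of these 0 (0%) passed an adjusted p of 0.05 in limma with Benjamini-Hochberg adjustment, and 50 (9.07%) had an unadjusted p under 0.05. Of the 7 miR-30 assays 0 passed and 0 had an unadjusted p under 0.05. miR-30e had the smallest p of the 7, with a log2 fold change of -0.32 ± 0.24 (SE), a 95% interval from -0.91 to 0.27 and a limma adjusted p of 0.689. miR-30c was at -0.34 ± 0.31 (SE), with an interval from -1.11 to 0.42. miR-30b was at -0.19 ± 0.26 (SE), with an interval from -0.84 to 0.45. The remaining name-giving arms were just above 0, miR-30a at 0.07 ± 0.24 (SE) with an interval from -0.52 to 0.66 and miR-30d at 0.13 ± 0.30 (SE) with an interval from -0.62 to 0.89.

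The intervals were wide beside the estimates. For miR-30a, the tightest of the family together with miR-30e, the interval ran from 0.695-fold to 1.58-fold of room air, and for miR-30c from 0.464-fold to 1.34-fold. Changes within these bounds are not excluded by 3 samples per group. The members' spread was at or below that of the card: the SD within groups was 0.17 for miR-30e, 0.18 for miR-30a, 0.23 for miR-30b, 0.32 for miR-30d and 0.33 for miR-30c, with a median of 0.42 over the 282 assays. Their absolute log2 fold changes, at most 0.34 (miR-30c), lay below the median of 0.45 over the first-card assays tested. Of the 302 first-card assays tested, 177 had a larger absolute log2 fold change than miR-30c, 184 than miR-30e, 230 than miR-30b, 251 than miR-30d and 279 than miR-30a.

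The reference moved the family's values together with those of the card. With the card mean as reference 3 of the 5 first-card members were negative and 2 positive with a median of -0.19, beside -0.13 over all first-card assays tested; with the small RNA controls as reference, or without normalization, all 5 were negative, with medians of -0.76 and -0.95. Under these settings the median of all 551 assays was -0.62 in both cases, beside -0.12 with the card mean. That median spans both cards, which shift by different amounts, so it is not a like measure for the 5 first-card members. On the first card such a reference moves all assays detected in every sample by the same amount, members and others alike. The controls, which are small nuclear and nucleolar RNAs and the Y1 RNA, differed in how far they moved: on the first card snoRNA202 was 0.04 cycles later in hyperoxia and U87 0.13 cycles earlier (-0.13), while U6 was 0.43 cycles later in its row A wells and 1.06 later in its row B wells. The 2 U6 wells of a row held the same value in every sample, and both rows held the same value in room air replicates 1 and 3. These wells therefore cannot be counted as separate readings. For miR-30a and miR-30d single samples also turned the sign. miR-30a was at -0.01 without room air replicate 1 and at -0.05 without hyperoxia replicate 3, and miR-30d at -0.08 without hyperoxia replicate 3. miR-30b, miR-30c and miR-30e, and the median of the 5, stayed negative under all 26 alternatives run, with 0 members called in any. Some of the 26, such as those on second-card values, the detection filter, the prior and the replicate block, leave first-card estimates as they are. The sign could not turn in those. The size of the estimates moved with single samples: miR-30b was at -0.045 without room air replicate 1 and at -0.07 without hyperoxia replicate 2. miR-30c ran from -0.19 without hyperoxia replicate 2 to -0.56 without hyperoxia replicate 3.

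**Figure D2:**
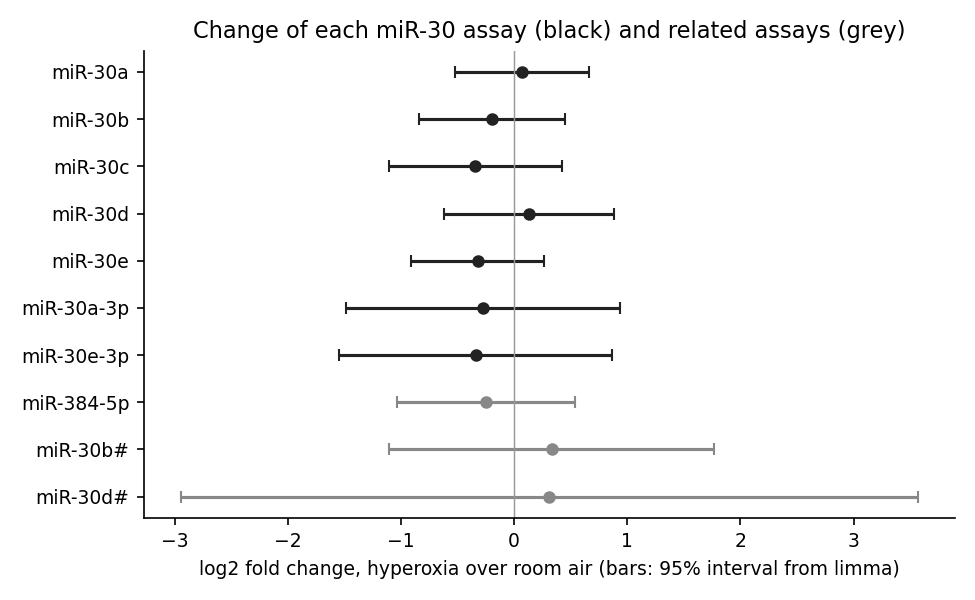
Log2 fold change of hyperoxia over room air (horizontal axis) for the 7 miR-30 assays in black and for miR-384-5p, miR-30b# and miR-30d# in grey; points are limma estimates relative to the card mean and bars are 95% intervals. Every interval holds 0, from the narrow ones of miR-30a (-0.52 to 0.66) and miR-30e (-0.91 to 0.27) to that of miR-30d# (-2.95 to 3.57); miR-30a and miR-30d lie above 0 here and below 0 with the small RNA controls as reference.

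The authors' deposited table sets each assay against the U6 wells of row A of the first card. It gives folds of hyperoxia over room air of 0.629 for miR-30c, 0.639 for miR-30e, 0.697 for miR-30b, 0.837 for miR-30a and 0.875 for miR-30d. For the second card the authors' deposited table gives 1.09 for miR-30a-3p and 1.06 for miR-30e-3p, with the shared values counted in both groups and the first-card U6 as reference for another card. No test accompanies these folds.

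Members can be compared with each other without any reference, since the difference of 2 Ct values of the same sample cancels its input. All 10 pairs of first-card members were compared between the groups by an exact two-sided permutation test. Of these, 1 had groups that did not overlap, miR-30e against miR-30a, which differ by 1 base. Over all 39621 pairs of the 282 assays, 7257 (18.3%) did not overlap, so the family's count of 1 in 10 is not above that of the card. miR-30e crossed 1.01, 1.52 and 1.498 cycles after miR-30a in room air replicates 1, 2 and 3, and 1.85, 1.65 and 1.69 cycles after it in hyperoxia. All 3 hyperoxia samples thus had a wider gap than all 3 room air samples, by 0.39 cycles on average (exact permutation p = 0.1, the smallest possible here; 0.667 after adjustment over the 10 pairs). Without room air replicate 1 the difference was 0.22 cycles. With 1 sample left out in turn, the exact permutation p ran from 0.1 to 0.3.

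The other 9 pairs overlapped between the groups, with exact permutation p from 0.2 to 0.9. The gap of miR-30d behind miR-30c narrowed from 4.94, 4.41 and 4.05 cycles in room air to 3.82, 4.16 and 3.99 in hyperoxia, with room air replicate 3 inside the hyperoxia range (difference -0.48, exact permutation p = 0.2). miR-30e and miR-30c, of which 1 copy shares a cluster with miR-30e, had distances of 3.58, 3.63 and 3.24 cycles in room air against 3.46, 3.32 and 3.61 in hyperoxia, a change of -0.02 (exact permutation p = 0.9). The other copy shares a cluster with miR-30a. The Ct of miR-30c minus that of miR-30a was -2.57, -2.11 and -1.74 cycles in room air. In hyperoxia it was -1.60, -1.66 and -1.92 (difference 0.41, exact permutation p = 0.2). The cluster mates miR-30b and miR-30d differed by 4.39, 3.53 and 3.72 cycles in room air and by 3.63, 3.78 and 3.25 in hyperoxia (difference -0.33, exact permutation p = 0.5). miR-30d crossed 2.37, 2.30 and 2.31 cycles behind miR-30a in room air against 2.21, 2.50 and 2.07 in hyperoxia (difference -0.07, exact permutation p = 0.7). Over the 6 samples the distance of a pair ranged by 0.39 cycles for miR-30e and miR-30c, the least, and by 1.13 for miR-30d and miR-30b, the most.

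**Figure D3:**
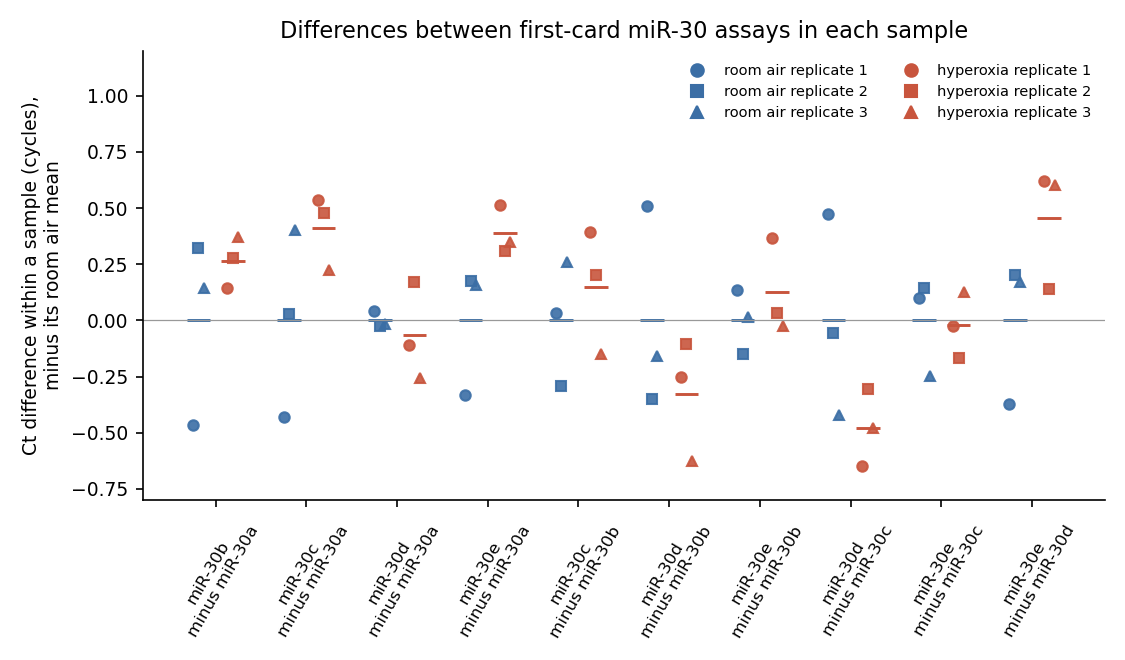
Difference in Ct between 2 first-card miR-30 assays in the same sample (cycles), minus its room air mean, for all 10 pairs; points are samples, short lines group means. The pair miR-30e minus miR-30a is the only 1 of the 10 whose hyperoxia samples (1.65 to 1.85 cycles before centring) all lie above the room air samples (1.01 to 1.52).

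The opposite arms were abundant readings too. miR-30a-3p read 15.84 and 15.89 in room air replicates 2 and 3, against 15.94 and 16.71 in hyperoxia replicates 1 and 3. miR-30e-3p read 16.18 and 16.10 in room air against 16.28 and 17.06 in hyperoxia. In both assays hyperoxia replicate 1 lay within 0.2 cycles of the room air samples and hyperoxia replicate 3 stood later. The raw Ct of both was later in both hyperoxia samples, as it was for 63 of the 249 second-card assays detected in all 4 samples (25.3%). Relative to the second card's mean the log2 fold changes were -0.28 ± 0.42 (SE) for miR-30a-3p and -0.34 ± 0.42 (SE) for miR-30e-3p, with 95% intervals from -1.49 to 0.93 and from -1.55 to 0.87 and limma adjusted p of 0.867 and 0.829. With the first card's mean as reference for both cards they were at 0.39 and 0.32, and with quantile normalization at -1.13 and -0.93. Without hyperoxia replicate 3 they were at 0.017 and -0.038, and without hyperoxia replicate 1 at -0.76 and -0.83. The 2 arms differ by 1 base. miR-30e-3p crossed 0.34 and 0.21 cycles after miR-30a-3p in room air, against 0.33 and 0.35 cycles after it in hyperoxia, with the smallest gap in room air replicate 3.

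The identity of second-card assays is less certain than that of the first. All 105 names there that carry an assay number match the number listed 3 wells later, so names and numbers are displaced against each other. Names were used here. Taken 3 wells later, the values for miR-30a-3p and miR-30e-3p would give log2 fold changes of 0.53 ± 0.98 (SE) and 0.78 ± 0.78 (SE), also not past the threshold.

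The passenger arms marked # were read at much lower levels. miR-30b# had a Ct of 27.04 and 26.04 in room air, beside 26.10 and 26.69 in hyperoxia, with a log2 fold change of 0.33 ± 0.50 (SE). miR-30d# scattered widely in room air, at 25.42 and 22.42, and less in hyperoxia, at 23.58 and 24.00, with a log2 fold change of 0.31 ± 1.12 (SE). Both sets overlapped, and neither assay passed (limma adjusted p of 0.867 and 0.940). With the small RNA controls as reference the values were -0.09 and -0.12. That of miR-30d# was -1.12 without room air replicate 2 and 1.76 without room air replicate 3.

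The log2 ratio of each hairpin's 5p arm to its 3p arm was compared over the 4 samples with values on both cards. For miR-30a it was -2.34 and -2.29 in room air against -2.38 and -1.51 in hyperoxia, and for miR-30e -3.52 and -3.57 against -3.90 and -2.86. In both hairpins 1 hyperoxia sample lay below the room air pair and the other above it, with an exact permutation p of 1. For miR-30b the ratio was 10.1 and 9.28 against 9.19 and 9.65, and for miR-30d 4.93 and 1.93 against 3.05 and 3.70, with overlap in miR-30b and with the room air values of miR-30d on both sides of hyperoxia (exact permutation p of 0.667 and 1). With 2 samples against 2 the smallest p is 0.333, and since the arms were read on different cards the level of a ratio depends on both card means.

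miR-384-5p, which carries the family's seed on an otherwise different sequence (12 of 22 positions identical to miR-30a), was read far later. Its Ct was 27.34, 27.49 and 28.42 in room air against 29.10, 28.51 and 28.67 in hyperoxia, without overlap. In relative abundance the groups overlapped, at -5.31, -5.003 and -5.83 against -5.63, -5.89 and -5.36, with a log2 fold change of -0.25 ± 0.32 (SE) and a limma adjusted p of 0.829. Its raw delay was 1.01 cycles, against 0.76 for the card mean.

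Among other first-card assays, the likeness to the family was taken as Pearson's r across the 6 samples with the mean relative abundance of the 5 members. That mean was 6.85, 6.82 and 6.68 in room air against 6.67, 6.39 and 6.89 in hyperoxia, so hyperoxia replicate 2 was lowest and hyperoxia replicate 3 highest. The 5 assays most like it were miR-429 (r = 0.97), miR-292-3p (0.95), miR-294 (0.92), miR-34b-3p (0.92) and miR-449a (0.91), from a field of 282 and with 6 samples that share card and reference. miR-429, an epithelial miRNA of the miR-200 family, was at 5.15, 4.95 and 4.74 in room air against 4.89, 4.23 and 5.12 in hyperoxia. miR-449a, a miRNA of ciliated airway cells, was at 4.25, 4.29 and 3.62 against 3.09, 1.196 and 3.55, and miR-34b-3p, of the same cells, at 4.21, 4.18 and 3.72 against 4.05, 2.58 and 4.02. All 5 of these assays had their lowest value in hyperoxia replicate 2, as the family mean did. They were picked for likeness to that mean, so the shared low sample is no separate result. miR-292-3p and miR-294, miRNAs of embryonic stem cells, were read at low levels, miR-294 between -9.25 and -6.04. Of the members themselves, miR-30c was most like the mean (r = 0.89) and miR-30a least (0.50), and miR-384-5p had r = 0.79. Each member is part of that mean, which raises its r, while miR-384-5p is not, so these values are not like for like.

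Markers of lung cell types were measured in the same samples. The summed relative abundance (log2) of the 3 first-card ciliated cell assays, of which 2 were detected in all samples, was 3.92 to 4.42 in room air and 1.86 to 3.94 in hyperoxia. The list was split: of its 4 assays tested over both cards 2 were positive and 2 negative. The log2 fold change was -1.44 for miR-449a and -1.03 for miR-449b, but 0.47 for miR-34c and 0.62 for miR-34b-5p. The summed relative abundance of the 6 epithelial assays was 7.32 to 7.496 against 6.75 to 7.54, that of the 2 endothelial assays 10.1 to 11.2 against 10.1 to 10.3, and that of the 4 leukocyte assays 6.53 to 6.90 against 6.06 to 7.10, all detected in every sample. The 4 smooth muscle and mesenchyme assays summed to 8.378 to 8.62 in room air against 7.98 to 8.374 in hyperoxia, the sole list of the 9 whose groups did not overlap. The nearest samples almost met (8.378 and 8.374), and of the 282 single assays 46 (16.3%) were lower in every hyperoxia sample. Over both cards 3 of the list's 6 assays were positive and 3 negative. On the first card miR-145 had a log2 fold change of -0.68 and miR-214 of 0.49. The 2 red cell assays (1.17 to 3.35 against 1.39 to 4.11), the 6 striated muscle assays (3.49 to 10.2 against 2.33 to 5.40) and the liver and brain assays overlapped between the groups. The muscle value of 10.2 rests on the miR-499 well. Its lowest Ct was 11.8, beside a mean of 25.7 in room air and 27.2 in hyperoxia. The other first-card muscle assays had no Ct below 18.1, the lowest of miR-133a. That sum therefore does not show that muscle miRNAs in general were abundant in the sample. In whole lung a smaller share of cells of a type and less miRNA per cell cannot be told apart. The part of cell composition in the miR-30 values was not tested.

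The miR-30 family was set beside 3 lists of miRNAs linked to the same processes, chosen with earlier results of these data known. Of 10 assays of miRNAs of the epithelial programme 0 passed, 5 were positive and 5 negative (1 and 9 with the small RNA controls as reference), with a median of 0.03. miR-34a, induced by p53, had their smallest p (log2 fold change 2.55 ± 0.28 SE, limma adjusted p = 0.0723). Of 10 fibrosis-linked assays 0 passed, 7 were positive and 3 negative (5 and 5 with the controls), with a median of 0.76. miR-21, abundant in injured tissue, had their smallest p (1.61 ± 0.33 SE, limma adjusted p = 0.314). Of 8 angiogenesis-linked assays 0 passed, 4 were positive and 4 negative (2 and 6 with the controls), with a median of 0.01 and the smallest p for miR-221 (1.30 ± 0.31 SE, limma adjusted p = 0.333), a miRNA of endothelium among other cells. The 3 medians stand beside -0.28 for the 7 miR-30 assays and -0.12 for all 551 assays. With the small RNA controls as reference the medians were -0.53 for the epithelial, 0.10 for the fibrosis-linked and -0.56 for the angiogenesis-linked list, beside -0.76 for the 5 first-card miR-30 assays and -0.62 for all 551 assays. The median of the 5 covers the first card alone and that of the 551 both cards, so these are not like for like.

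**Figure D4:**
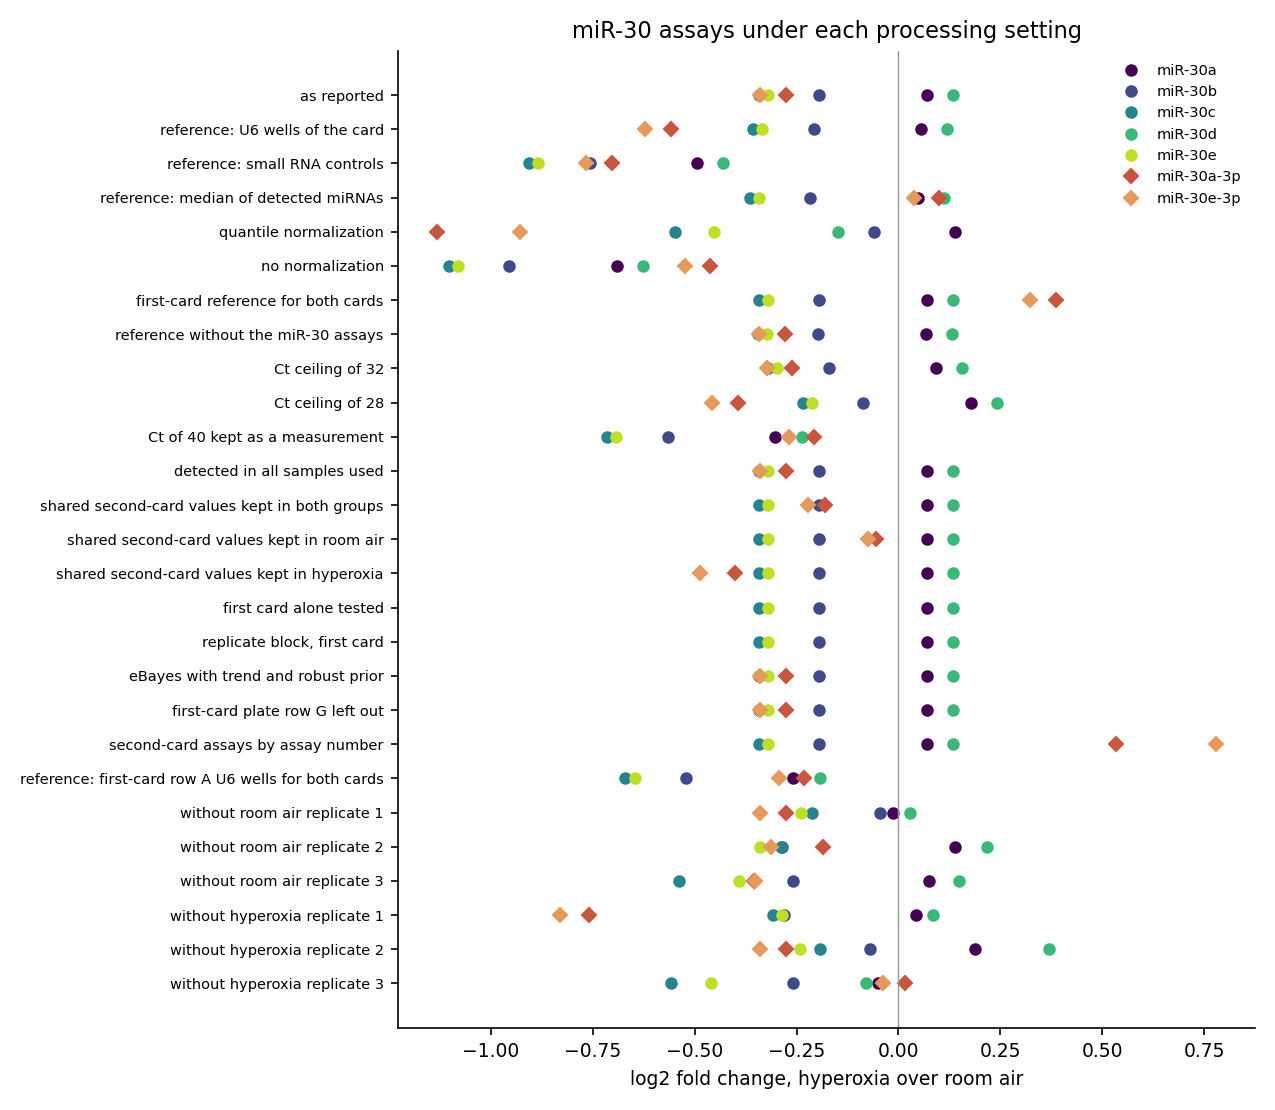
Log2 fold change of hyperoxia over room air (horizontal axis) of the 7 miR-30 assays under each of the processing settings (vertical axis), circles for first-card and diamonds for second-card assays. miR-30b, miR-30c and miR-30e lie below 0 in every setting, though some settings cannot move a first-card value. miR-30a and miR-30d, at 0.07 and 0.13 as reported, and the second-card assays change sign with the reference or with single samples. Without normalization all 7 lie below 0.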

How the data were processed

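The authors deposited 1 table of threshold cycles (Ct) for 2 cards of 384 wells per sample; per the labels' protocols, RNA was reverse transcribed with Megaplex primer pools and pre-amplified for 12 cycles. The sources used here do not state instrument, software or the fluorescence threshold. Per the file headers, the table also holds the authors' ratio (fold) of hyperoxia over room air. From the Ct values, a Ct of 35 or more was set missing, and each card was referenced to the mean of its miRNAs detected in all samples used (282 and 249 assays). Assays detected in at least 2 samples of each group were tested with limma 3.58.1 in R 4.3.3 (lmFit, eBayes, two-sided, prior of 1.62 degrees of freedom, threshold 0.05), with a run on simulated data first. Second-card values shared by 2 samples were left out. Members and lists were chosen with earlier results of these data known. Named besides the members were their passenger arms, miR-384-5p, the smallest p of each list and the 5 most similar assays. Alternatives covered reference, Ct ceiling, detection filter, shared values, replicates, prior and assay numbers. The precision is limited by the number of samples.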

Additional observations from a re-analysis of the deposited data

How the results depend on the processing

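Over 26 alternatives for each first-card member, 0 miR-30 assays passed the adjusted threshold in any. The sign of miR-30a and miR-30d turned with the small RNA controls as reference (-0.49 and -0.43), without normalization (-0.69 and -0.63), with a Ct of 40 kept as a measurement (-0.30 and -0.24) and with the row A U6 wells as reference for both cards (-0.26 and -0.19, an alternative chosen after seeing the data). miR-30d also turned with quantile normalization (-0.15). With 1 sample left out miR-30a ran from -0.050 to 0.19, miR-30d from -0.080 to 0.37, miR-30a-3p from -0.76 to 0.017, miR-30e-3p from -0.83 to -0.038, miR-30b from -0.29 to -0.045, miR-30c from -0.56 to -0.19 and the median of the 5 from -0.29 to -0.045. The median of the 5 was -0.76 with the controls, -0.95 without normalization, -0.57 with a Ct of 40 kept and -0.52 with the row A U6 wells. miR-30a-3p and miR-30e-3p turned positive with the card median as reference (0.10 and 0.038), with the first-card reference (0.39 and 0.32) and by assay number (0.53 and 0.78), and were lower with quantile normalization (-1.13 and -0.93) and with the card's U6 wells (-0.56 and -0.62). miR-30b# and miR-30d# were at -0.095 and -0.12 with the controls and miR-30b# at -0.27 by number. With 1 sample left out, miR-30b# reached -0.10 without room air replicate 2 and -0.06 without hyperoxia replicate 1, and miR-30d# ran from -1.12 (without room air replicate 2) to 1.76 (without room air replicate 3). The change of the log2 arm ratio from room air to hyperoxia was 0.37 for miR-30a and 0.17 for miR-30e with the card means. Without normalization these changes were -0.29 and -0.50, and that of miR-30e was -0.10 with the shared values kept. The pair change of miR-30d minus miR-30a reached 0.030 and that of miR-30e minus miR-30c 0.0505 with 1 sample left out. Over all assays 1 passed with a Ct ceiling of 32 or 28, with a Ct of 40 kept, with the first card alone or with a trended robust prior, and 4 without hyperoxia replicate 1. The cause was not tested. Same-numbered samples did not deviate together (r of -0.34, -0.23 and -0.18 over 282 assays). With the replicate number as a block, on the first card, miR-30e was at -0.32 ± 0.30 (SE) and 0 assays passed.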
